A study of Mus musculus with 13 samples.

Results

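The genes described here are 128 mouse zinc finger protein genes with numbered symbols, taken by a rule on the symbol and the mean level that uses no fold change. Each symbol in the authors' deposited table is Zfp followed by a number of 3 digits, from 500 upward, with no further letters, and the gene's mean over all libraries is at least 50 normalised counts. That deposited table holds 196 symbols of this form, with 1 further symbol left out by the selection. Of the other 68, all below the minimum mean, 58 had an adjusted p, 5 had no reads and 5 had reads but no adjusted p, 2 of them marked as outliers by the authors. The whole table lists 24972 genes, of which 17449 had an adjusted p and are called tested here, and 11075 of these had a mean of at least 50. All 128 members were tested and none was set aside.

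PolyA RNA was sequenced from tongue epithelia of mice that all carried LSL-H3K36M, an allele for a mutant histone H3 with methionine in place of lysine 36, made once Cre recombinase removes a stop cassette. The 7 control samples were Krt14-Cre(-); LSL-H3K36M and the 6 H3K36M samples were Krt14-Cre(+); LSL-H3K36M. The Krt14 promoter is active in basal cells of stratified epithelia, and since every H3K36M sample also carried Cre, the recombinase and the mutant histone cannot be told apart. The labels give no age, sex or strain and do not tie samples to named animals, so p-values measure the spread between these samples, which may be technical. The deposited table gives 1 fitted level per group for each gene, in normalised counts, and no values of single samples, so no overlap between single samples can be described. Mean depth was 15769800 normalised counts per library.

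C2H2 zinc finger proteins hold repeats of a short fold in which a pair of cysteines and a pair of histidines grip a zinc ion, and rows of such fingers read DNA bases. Many also carry a Krüppel-associated box (KRAB), a stretch near the start of the protein whose A part binds the corepressor KAP1, made by Trim28, and through it the histone H3 lysine 9 methyltransferase Setdb1 and heterochromatin protein 1. KRAB zinc finger proteins are best known for silencing retroelements, and their genes lie in clusters of tandem copies. In human cells the bodies of such genes are known for carrying trimethylation of lysine 36 together with that of lysine 9, and the H3K36M mutant blocks enzymes that methylate lysine 36. Members without a KRAB box are a mixed group of transcription cofactors and RNA-binding proteins.

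The domains were read from GENCODE coding sequences of build GRCm38, in which all 128 members were found once and 127 had a coding annotation (Zfp939 had none). A KRAB A box was found in 81 members and not in 46. The KRAB members had a median of 12 classical fingers and the others of 7, with up to 27 in Zfp646. The A boxes of 5 members show the part that defines the larger group. Zfp976 and Zfp605 had the largest positive fold changes at an unadjusted p below 0.05, Zfp948 and Zfp983 had the highest and the lowest fold change in the largest gene cluster, and Zfp809 is a known retroviral repressor. Each line is 120 coding bases, 5′ to 3′ on the gene's strand, with capitals for the codons whose amino acid equals that of a 40-residue consensus box.
Zfp976: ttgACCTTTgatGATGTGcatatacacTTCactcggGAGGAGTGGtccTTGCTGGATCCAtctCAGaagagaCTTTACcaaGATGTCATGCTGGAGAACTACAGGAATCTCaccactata
Zfp605: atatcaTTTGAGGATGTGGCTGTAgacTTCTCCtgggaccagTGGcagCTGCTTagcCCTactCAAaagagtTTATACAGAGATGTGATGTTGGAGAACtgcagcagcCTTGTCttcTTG
Zfp948: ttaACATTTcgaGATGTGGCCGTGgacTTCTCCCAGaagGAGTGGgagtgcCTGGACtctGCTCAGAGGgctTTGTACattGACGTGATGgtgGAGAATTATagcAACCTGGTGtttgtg
Zfp983: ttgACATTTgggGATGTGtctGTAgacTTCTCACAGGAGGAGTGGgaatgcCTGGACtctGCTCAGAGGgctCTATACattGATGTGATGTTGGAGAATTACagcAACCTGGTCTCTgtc
Zfp809: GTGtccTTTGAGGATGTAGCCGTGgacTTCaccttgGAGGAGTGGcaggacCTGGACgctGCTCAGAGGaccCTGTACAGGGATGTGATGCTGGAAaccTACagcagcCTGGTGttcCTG
The boxes lie at chr7:42616234-42616353 (minus strand), chr5:110123760-110123879, chr17:21584786-21584905, chr17:21658919-21659038 and chr9:22235026-22235145 (plus strand), each within 1 exon. They match the consensus in 25, 25, 27, 29 and 28 of 40 codons, and over the 81 boxes the count ran from 15 to 31 with a median of 26. The boxes of Zfp948 and Zfp983 share 103 of 120 bases (85.8%), and those of Zfp976 and Zfp948 share 72.

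The finger motif itself is shown for the 3 members with an unadjusted p below 0.05. Capitals mark the codons of the 2 cysteines and 2 histidines in the first classical finger of each, 63 bases long.
Zfp976: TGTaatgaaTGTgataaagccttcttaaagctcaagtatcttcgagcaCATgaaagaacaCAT
Zfp605: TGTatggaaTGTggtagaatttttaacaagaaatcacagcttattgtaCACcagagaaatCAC
Zfp827: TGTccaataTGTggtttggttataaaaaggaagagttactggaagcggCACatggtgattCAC
They lie at chr7:42613956-42614018 (minus strand), chr5:110127621-110127683 and chr8:79070403-79070465 (plus strand).

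None of the 128 members passed the authors' adjusted p of 0.05 in either direction in their deposited table (DESeq2 by the authors). Over all 17449 tested genes 3.43% passed, and over the 11075 with a mean of at least 50 the share was 2.97%, 1.23% higher and 1.74% lower in H3K36M. At an unadjusted p below 0.05 the deposited table held 3 members, 2.34% of them, beside 8.51% of all tested genes of that minimum mean. The smallest adjusted p of a member was 0.271, for Zfp976, and 120 members had one above 0.9.

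The deposited fold changes of the members were small and leaned above 0. Their median log2 fold change (H3K36M over control, positive where H3K36M is higher) was 0.16, or 1.12-fold, with quartiles of −0.04 and 0.30. The sign was positive in 93 members (72.7%) and negative in 35. Over the other 10947 tested genes of that minimum mean, the deposited median was 0.04, with quartiles of −0.17 and 0.27 and 55.7% above 0. In 114 members (89.1%) the change was below 0.5 in size, and it exceeded 1 in 1 member alone, Zfp976. The 95% interval held 0 in 125 members. Summed over the members, the deposited levels were 33626 normalised counts in control and 36234 in H3K36M, 0.204% and 0.243% of the whole table and a ratio of 1.08.

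**Figure D1:**
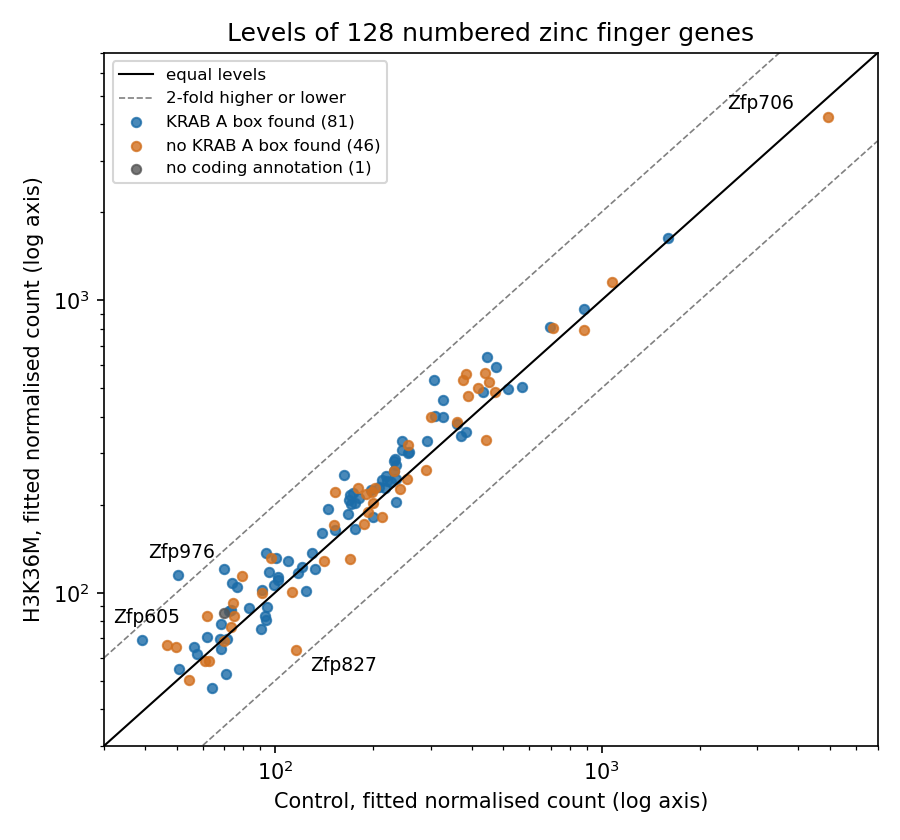
Fitted level of each of the 128 members in control (horizontal) and H3K36M (vertical), in normalised counts on log axes; each point is 1 gene, coloured by whether a KRAB A box was found. The solid line marks equal levels and the dashed lines 2-fold differences; only Zfp976, from 50.4 to 115, lies outside them.

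Levels per length varied far more between members than between groups. The mean per kilobase of exon ran from 4.47 normalised counts (Zfp652) to 924 (Zfp706), with a median of 38.6 and quartiles of 22.1 and 76.0. Zfp706, a small protein with 1 finger known in mouse embryonic stem cells for the exit from self-renewal, had deposited levels of 4921 in control and 4234 in H3K36M, a log2 fold change of −0.22 (SE 0.27). The next by mean per kilobase were Zfp772 (327 normalised counts), Zfp869 (319), Zfp617 (247), Zfp692 (218) and Zfp948 (202). Their deposited log2 fold changes were 0.07 (SE 0.34), −0.06 (SE 0.30), 0.23 (SE 0.44), 0.27 (SE 0.53) and 0.52 (SE 0.49), each with a 95% interval that holds 0. Zfp617 shares 36.5% of its 75-base stretches, the read length, with transcripts of other genes, so its level is uncertain.

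Zfp976, a KRAB member with 18 fingers on chromosome 7 (42609526 to 42642588, minus strand), had the largest increase. Its deposited fitted levels were 50.4 normalised counts in control and 115 in H3K36M, a log2 fold change of 1.19 (SE 0.50, 95% interval 0.21 to 2.17), with an unadjusted p of 0.0172 and an adjusted p of 0.271. Of its 75-base stretches 10.5% also occur in other genes, mostly in Zfp975, whose deposited levels were 102 and 110.5 (log2 fold change 0.12, SE 0.46).

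Zfp605, a KRAB member with 12 fingers on chromosome 5 (110110092 to 110129794, plus strand), had deposited levels of 39.2 in control and 68.9 in H3K36M. That is a log2 fold change of 0.81 (SE 0.38, 95% interval 0.06 to 1.57), unadjusted p = 0.0339 and adjusted p = 0.414 in the deposited table. None of its 75-base stretches occurs in another gene.

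Zfp827 had the largest decrease. It lies on chromosome 8 (79028437 to 79193766, plus strand), codes for 1078 residues with 9 fingers and no KRAB box, and its human counterpart brings the NuRD chromatin remodelling complex to telomeres. Its deposited levels were 116 in control and 63.7 in H3K36M, a log2 fold change of −0.86 (SE 0.38, 95% interval −1.60 to −0.12), with an unadjusted p of 0.0221 and an adjusted p of 0.317. The differences of these 3 genes thus exceeded 2 standard errors, and none passed the adjusted threshold.

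**Figure D2:**
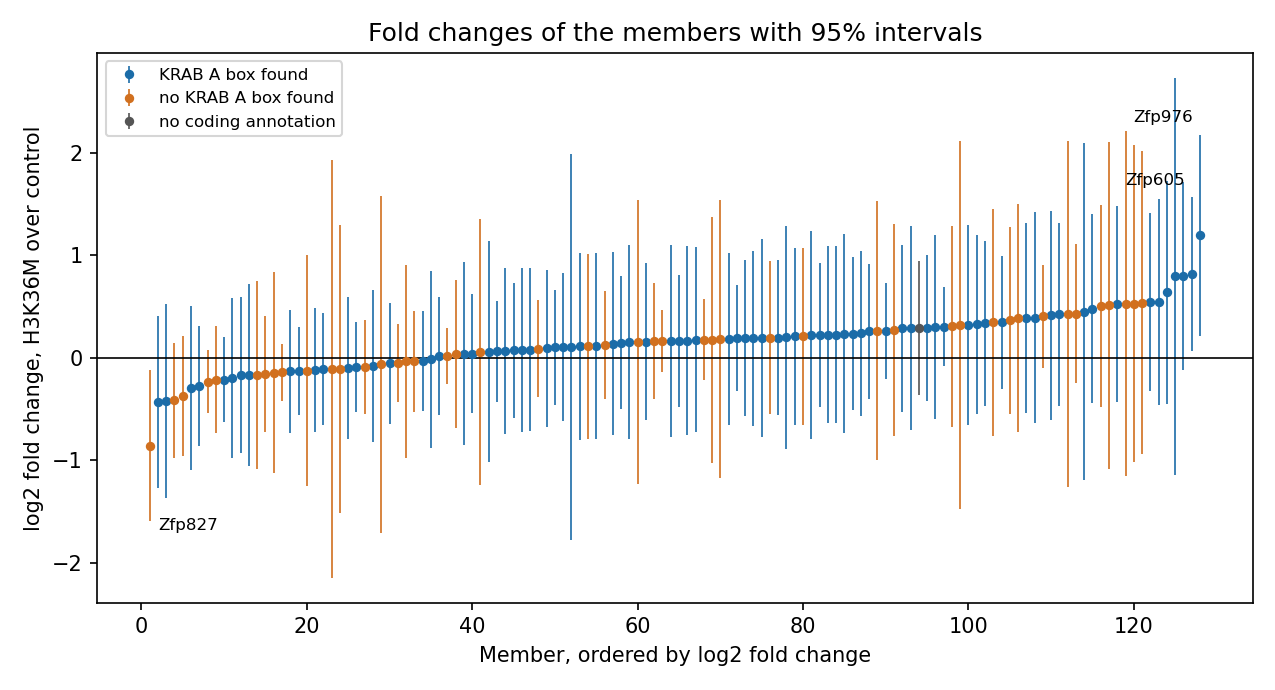
Log2 fold change of every member, ordered from lowest to highest, with its 95% interval from the authors' standard error; colours mark whether a KRAB A box was found. The intervals of Zfp827, Zfp605 and Zfp976 lie off 0, and those of the other 125 members hold it.

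How large a change could have been called follows from the standard errors. The smallest statistic among the genes the authors' deposited table calls was 3.14 standard errors, and the largest among members was 2.38. The deposited standard errors of the members ran from 0.14 (Zfp830) to 1.04 (Zfp651), with a median of 0.43, beside 0.34 over the other genes. The other genes also had a higher median level, 370 beside 189 normalised counts. At means of 50 to 100 the median standard errors were 0.46 (members) and 0.50 (other genes), and at 100 to 200 they were 0.41 and 0.40. At 200 to 400 they were 0.41 and 0.34, and at 400 or more 0.46 and 0.31. At 3.14 standard errors, the smallest log2 fold change that could be called was 0.44 for the most precise member, 1.35 at the median (2.56-fold) and 3.26 for the least precise. In 32 members an estimated log2 fold change of 1 would have reached that limit. A true doubling can give a smaller estimate, so this is not a rate of detection. The 95% interval lay wholly within ±1 in 57 members (44.5%), beside 57.0% of the other genes, so in the other members a doubling or halving is not bounded by the interval. Taking all libraries as equally deep, the standard errors correspond to a coefficient of variation between samples of 0.53 at the median, from 0.16 to 1.29.

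**Figure D3:**
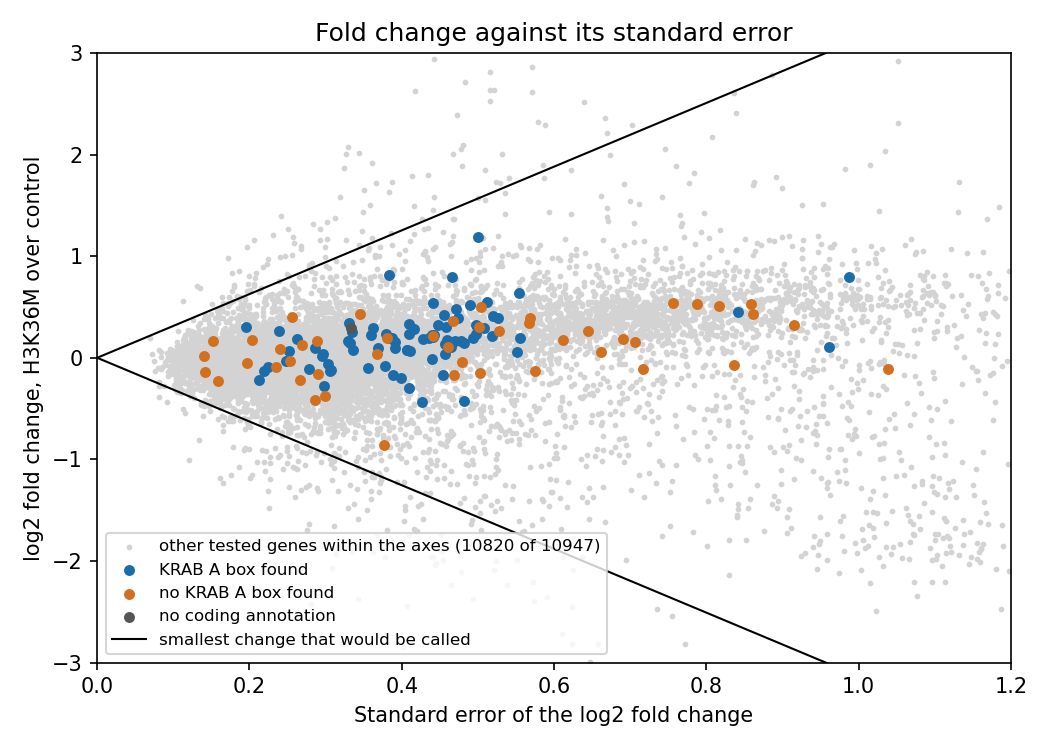
Log2 fold change against its standard error for the members (coloured) and the other tested genes with a mean of at least 50 (grey); the lines mark 3.14 standard errors, the smallest ratio called. No member lies outside the lines, and members with larger standard errors lie mostly above 0.

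The upward lean grew with the standard error in members and in other genes, but from 0.3 to 0.45 it was larger in members. In the 29 members with a standard error under 0.3 the deposited median log2 fold change was −0.04 and 14 were above 0. From 0.3 to 0.45 it was 0.18 over 43 members, 32 of them above 0, and from 0.45 upward 0.25 over 56 members, 47 of them above 0. In the same ranges the other genes had deposited medians of −0.04, 0.03 and 0.30, with 42.9%, 54.9% and 73.0% above 0. Across the 128 members, which share their libraries, fold change (log2) and standard error had a Pearson r of 0.35 and a Spearman rho of 0.43. The part of the standard error in the lean was not tested, and the ranges were chosen after the values were seen.

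By mean level, the medians of members and other genes lay close together at low levels and apart at high ones. From 50 to 100 normalised counts they were 0.13 (37 members) and 0.12, and from 100 to 200 they were 0.15 (33 members) and 0.14. From 200 to 400 they were 0.18 (38 members) and 0.09, and at 400 or more 0.19 (20 members) and −0.00085. Of the members at 400 or more, 16 were above 0 (80.0%), beside 49.9% of the other genes, and their median standard errors were 0.46 and 0.31.

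The deposited median was above 0 both with and without a KRAB box. The deposited median log2 fold change was 0.18 over the 81 KRAB members, 63 of them above 0 (77.8%), and 0.14 over the 46 others, 29 of them above 0 (63.0%). Of the other tested genes of that minimum mean, 55.7% were above 0. After centring on the median of all tested genes, the medians were 0.11 with a box and 0.07 without. Of the KRAB members 2 had an unadjusted p below 0.05 and of the others 1, and the difference between the groups was not tested. Only Zfp746 (61) and Zfp956 (43) had a box score near the limit of 60, and the next values were 95 and 29. A box with a gap, or one absent from the longest annotated coding sequence, could still have been missed. By number of fingers, the deposited median log2 fold change was 0.12 in the 14 members with 1 to 3 fingers, 0.17 in the 34 with 4 to 9, 0.16 in the 45 with 10 to 14 and 0.19 in the 30 with 15 or more. In the 4 members in which no classical finger was found it was 0.11, and across the 127 members with a coding annotation the number of fingers and the log2 fold change had a Pearson r of 0.05 and a Spearman rho of 0.05.

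**Figure D4:**
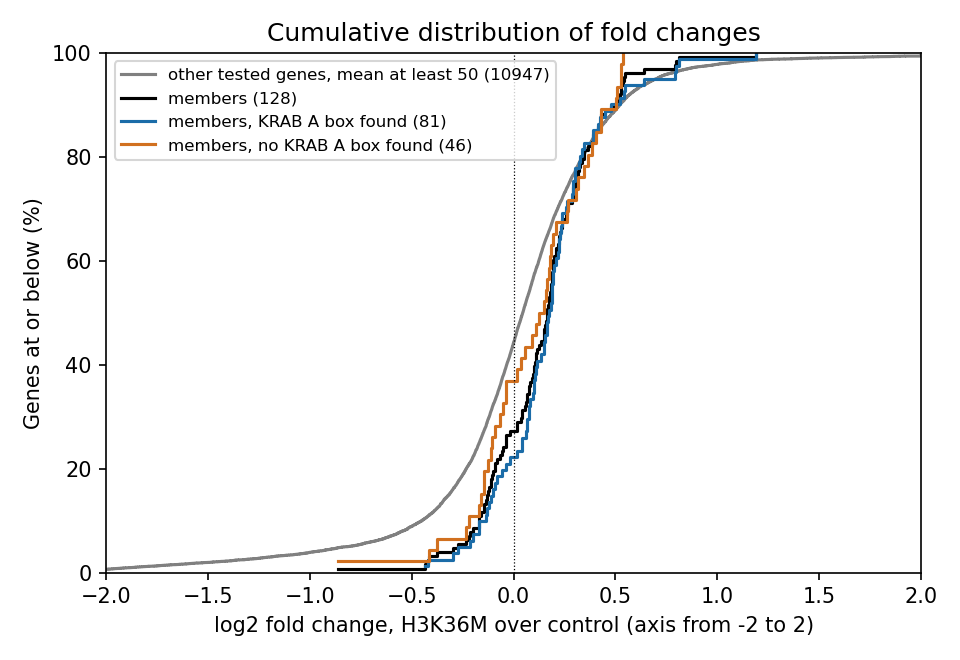
Share of genes (%) at or below each log2 fold change, for all members, members with and without a KRAB A box, and the other tested genes with a mean of at least 50. The members' curves run to the right of that of the other genes below about 0.3, with medians of 0.18 (KRAB), 0.14 (no KRAB) and 0.04 (other genes), and all curves meet above it.

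Of 19 listed genes for cofactors of transcription and chromatin, 15 were members and the other 4 (Zfp536, Zfp521, Zfp608 and Zfp711) had a lower mean. None of the 15 passed the adjusted threshold. Their deposited median log2 fold change was 0.21, with 10 above 0. The list was drawn up with earlier results of these data known.

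Partners of the chromatin reader ZMYND8 in human cells are the products of Zfp532, Zfp592 and Zfp687. Zfp532 had deposited levels of 301 in control and 399 in H3K36M (log2 fold change 0.40, SE 0.26, unadjusted p = 0.114). Zfp592 had 180.0 and 229 (0.34, SE 0.57), and Zfp687 had 97.5 and 131 (0.43, SE 0.86). The estimates of all 3 were above 0, as were those of 72.7% of all members. Each 95% interval holds 0, so neither a rise nor a shared size of change is shown.

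The corepressors Zfp503 and Zfp703 are a related pair. In the deposited table Zfp503 had levels of 142 in control and 128 in H3K36M (log2 fold change −0.15, SE 0.50), and Zfp703 had 202 and 228 (0.18, SE 0.61). Their signs differ, and both changes are well inside 1 standard error. Zfp516, which drives the brown fat gene Ucp1 in mice, had deposited levels of 187 and 171 (−0.13, SE 0.57).

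Zfp746 encodes PARIS, a KRAB protein that the ubiquitin ligase parkin marks for breakdown and that represses PGC-1α. Its deposited levels were 169 in control and 208 in H3K36M (log2 fold change 0.30, SE 0.46). Zfp609, a partner of the cohesin loader NIPBL and of the Integrator complex, had 153 and 220.2 in that deposited table (0.53, SE 0.79). Zfp644, whose human counterpart works with the lysine 9 methyltransferases G9a and GLP, had 453 and 523 (0.21, SE 0.44). Zfp668, tied to DNA repair in human cells, had 74.6 and 92.2 in the deposited table (0.31, SE 0.50), and Zfp652, a corepressor partner in human cells, had 69.9 and 68.1 (−0.04, SE 0.48). Zfp800 had deposited levels of 375 and 532 (0.50, SE 0.50) and Zfp507 of 361 and 384 (0.09, SE 0.24). None of these differences exceeded 1 standard error.

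Of 6 listed repressors of retroelements and imprinted promoters, 4 were members, and Zfp600 and Zfp819 were almost without reads, with deposited means of 0.173 and 0.454. Zfp809, which silences murine leukaemia proviruses through their primer binding site, had deposited levels of 169 in control and 215 in H3K36M (log2 fold change 0.35, SE 0.33). Zfp568, which represses a placental Igf2 promoter, had 72.4 and 86.8 in the deposited table (0.26, SE 0.24). Zfp932, a repressor of ERVK elements, had 474 and 592 (0.32, SE 0.50), with 26.4% of its 75-base stretches shared with other genes. Zfp708, which binds RMER19B retrotransposons, had deposited levels of 93.4 and 83.1 (−0.17, SE 0.45), and 94.3% of its stretches occur in other genes, nearly all in the overlapping transcript Gm28557. So 3 of the 4 were above 0, with a median of 0.29, and none passed.

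All 4 listed genes of RNA and ribosome functions were members, and none passed. Zfp598, whose human counterpart is the ubiquitin ligase that marks collided ribosomes, had deposited levels of 386 in control and 559 in H3K36M (log2 fold change 0.54, SE 0.76). Zfp622, related to a yeast factor in the maturation of the large ribosomal subunit, had 198 and 221 in that deposited table (0.16, SE 0.29). Zfp638, whose human counterpart brings the HUSH silencing complex to unintegrated retroviral DNA, had 1073 and 1158 (0.11, SE 0.46). Zfp830, a splicing factor of the early mouse embryo, was the most precisely measured member in the deposited table, with 199.6 and 201.9 (0.02, SE 0.14, 95% interval −0.26 to 0.29), and its sign turned to −0.05 after centring on the median of all tested genes.

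The proteins through which KRAB members act were read from a list of 24 genes of the KAP1 corepressor and heterochromatin. All 24 were tested and had a mean of at least 50. None passed the adjusted threshold in the authors' deposited table (DESeq2 by the authors), beside 2.97% of all tested genes of that minimum mean. None had a p below 0.05 before adjustment, beside 8.51% of those genes. In a list of 24 genes, counts of 0 do not show that the list is unchanged. The deposited median log2 fold change was 0.07, with 17 above 0, from −0.11 (Ehmt1) to 0.41 (Chd3). Trim28 had deposited levels of 735 in control and 910.0 in H3K36M (0.31, SE 0.66), and Setdb1 had 562 and 592 (0.08, SE 0.16). Of the list, Atf7ip, the Setdb1 cofactor, had the smallest p of the deposited table (0.144 before adjustment), with levels of 422 and 519 (0.30, SE 0.20). It was followed by the methyltransferase Suv39h1, with deposited levels of 126 and 145 (0.20, SE 0.24). Setd2, which trimethylates lysine 36, had deposited levels of 927 and 917 (−0.02, SE 0.28).

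Members lay on 18 chromosomes, most on chromosome 7 (28) and chromosome 17 (24). With neighbours within 500 kb joined, 52 members formed 9 runs of 3 or more on 6 chromosomes, and 45 of these were KRAB members. None of the 52 had an unadjusted p below 0.05 in the deposited table, beside 8.51% of all tested genes with a mean of at least 50. The median log2 fold change was 0.19 in the runs, with 40 of 52 above 0, and 0.15 in the 76 members outside them, with 53 above 0.

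The longest run, on chromosome 17 (21383748 to 22867134, 1483 kb), holds 14 members, all with a KRAB box, and all 14 were above 0. Their deposited median log2 fold change was 0.22, from 0.10 (Zfp983, levels 153 in control and 164 in H3K36M, SE 0.37) to 0.52 (Zfp948, 446 and 641, SE 0.49). Between these ends lay Zfp820 at 0.39 (SE 0.53), Zfp995 at 0.41 (SE 0.52) and Zfp758 at 0.29 (SE 0.51), with Zfp677 at 0.15 (SE 0.48) and Zfp943 at 0.16 (SE 0.48) near the bottom. Each change but that of Zfp948 was smaller than its standard error. Sharing of 75-base stretches was at most 9.73% (Zfp994). Inside the run lay 6 other tested genes with a mean of at least 50 (Zfp51, Zfp52, Zfp53, Zfp54, Zfp229 and Gm10509). They were also all above 0 in the deposited table, with a median of 0.35, and none passed. Such genes in other runs did not always lie on the side of the members, as given below. All 14 stayed above 0 when the median of all tested genes was subtracted, as the lowest (0.10) exceeds that median (0.07). The standard errors in the run went from 0.37 to 0.56. Other genes with one from 0.3 to 0.45 had a median of 0.03, with 54.9% above 0. At 0.45 or more it was 0.30, with 73.0% above 0. Genes of 1 run are measured in the same libraries, so their signs are not independent, and the run was singled out after its values were seen.

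The second run on chromosome 17 had a deposited median log2 fold change of 0.06 over 6 members, 5 of them above 0, from −0.10 (Zfp799) to 0.09 (Zfp763). On chromosome 13, 7 members had a median of 0.14, with 4 above 0, from −0.42 (Zfp759, levels 70.8 and 52.9, SE 0.48) to 0.23 (Zfp953). On chromosome 4, all 4 members were above 0, with a deposited median of 0.39. The highest there was Zfp991, with deposited levels of 307 and 534 (0.80, SE 0.47, unadjusted p = 0.0874), but 75.9% of its stretches are shared with other genes, mostly Znf41-ps. These runs thus spread on both sides of the median of all members.

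On chromosome 6, all 3 members were above 0, with a deposited median log2 fold change of 0.43 and the smallest p in Zfp956 (levels 61.8 and 83.2, SE 0.35). On chromosome 8, one run of 3 lay above 0 with a median of 0.23, led by Zfp709 (0.55, SE 0.51), and a run of 5 had a median of −0.06, with Zfp930 (0.42, SE 0.46) at the top and Zfp963 (−0.27, SE 0.30) at the bottom. The first run on chromosome 7 had a deposited median of 0.22 over 3 members, with Zfp850 highest (0.54, SE 0.44). The second run on chromosome 7 is the one with few KRAB members, 2 of 7, and its median was −0.09 with 3 of 7 above 0. Its lowest member was Zfp629, with deposited levels of 169.8 and 131 (−0.38, SE 0.30). Of the other tested genes inside this run with a mean of at least 50, 10 of 14 were above 0, with a median of 0.22. On chromosome 13 all 6 such genes were above 0 (median 0.13). In the second run on chromosome 17 it was 1 of 2 (median −0.15). In the first runs on chromosomes 7 and 8, 2 of 2 and 1 of 1 were above 0, and the remaining runs held none.

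**Figure D5:**
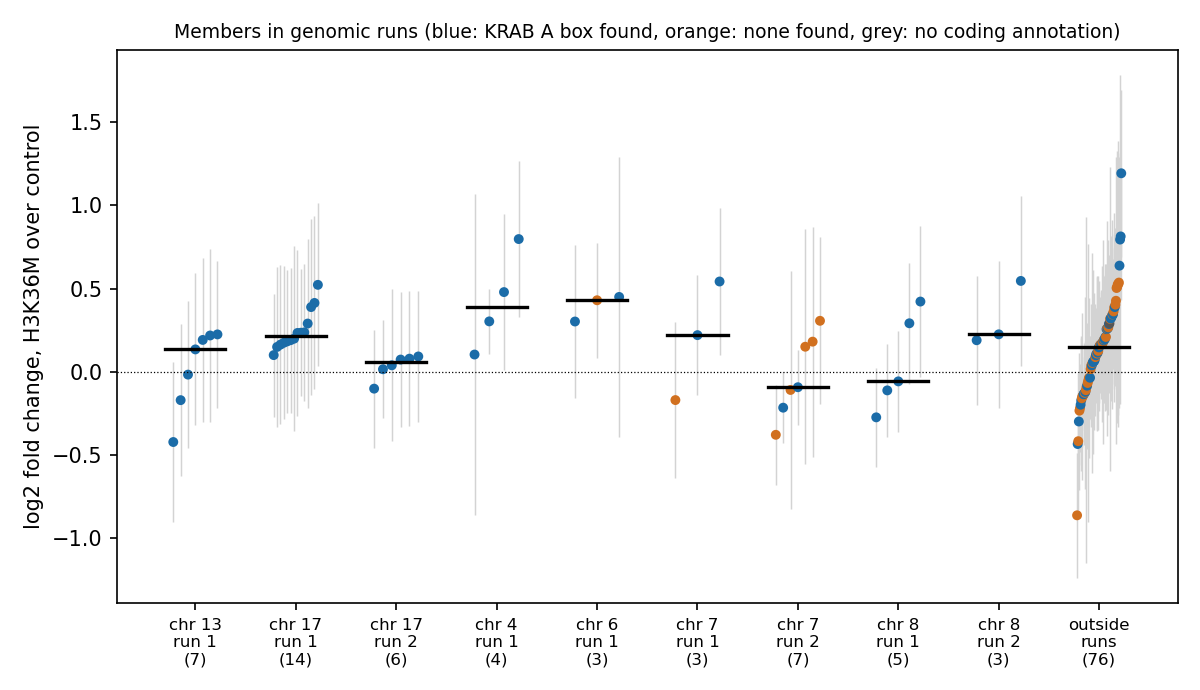
Log2 fold change of the members in each of the 9 genomic runs and of the 76 members outside them, with black bars for medians and grey lines for 1 standard error either side. All 14 members of the first run on chromosome 17 lie above 0, with a median of 0.22, and no run holds a member with an unadjusted p below 0.05.

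Tandem copies can share reads. Of the members, 65 have no 75-base stretch in common with a transcript of another gene, and 13 have over 25% in common, 12 of them KRAB members. All stretches of Zfp967 and Zfp935 occur in other genes, so their levels cannot be assigned. The 13 had a deposited median log2 fold change of 0.23 and the other 115 of 0.16. In addition, 62 members overlap another annotated gene, 49 of them a gene on the opposite strand; the library kit was directional, and whether strand was used in counting is not given in the sources used here.

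Next to the minimum mean, the lowest members were Zfp768 (mean 52.6, deposited log2 fold change −0.11, SE 0.72) and Zfp971 (52.6, 0.11, SE 0.46). Just outside it were Zfp781 (mean 49.96, 0.74, SE 2.22) and Zfp691 (47.6, −0.24, SE 0.46). Of the 58 tested genes below the minimum, 2 passed the authors' adjusted threshold. Zfp783 had deposited levels of 11.99 in control and 51.3 in H3K36M, a log2 fold change of 2.10 (SE 0.59, adjusted p = 0.0154). Zfp618 fell in the deposited table from 13.7 to 2.33, a log2 fold change of −2.55 (SE 0.72, adjusted p = 0.0167). These 2 of 58 (3.45%) stand beside 3.43% of all tested genes.

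The 107 numbered genes from Zfp1 to Zfp499 with the same minimum mean had a deposited median log2 fold change of 0.09, with 71.0% above 0, beside 72.7% of the members. Of these, 2 rose by the adjusted threshold (1.87%), beside 1.23% of all tested genes of that minimum mean. Zfp239 went from 17.6 to 109 normalised counts in the deposited table (log2 fold change 2.63, SE 0.42, adjusted p = 8.33e-08), and Zfp9 from 44.9 to 96.9 (1.11, SE 0.34, adjusted p = 0.0389). The difference between the 2 number ranges was not tested.

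Markers of several cell types moved between the groups in the same table. The 8 markers of tongue epithelium were all present, with means of at least 4956 normalised counts, a deposited median log2 fold change of −0.18, and Krt14 as the one that fell (−0.87). All 7 gland markers rose, their summed deposited level going from 204 to 3037, and of 5 neutrophil markers 2 rose (sum 158 to 1819). The neutrophil markers ran from 0.50 (Il1b) to 4.08 (S100a9), with a median of 1.56 and a lowest mean of 2.96 normalised counts (Csf3r). Which cells made the neutrophil markers was not tested. The 7 skeletal muscle markers had summed deposited levels of 68589 and 19253, log2 fold changes from −2.10 (Myh4) to −1.19 (Des), and none passed. The 5 fibroblast and 4 endothelial markers had medians of −0.09 and −0.23 with none called. The 4 macrophage markers were all above 0, with summed deposited levels of 855 and 5293. Their median log2 fold change was only 0.21, with values from 0.13 (Csf1r) to 3.33 (Lyz2). Lyz2 had no adjusted p in the deposited table, and none of the other 3 was called. No listed marker was at 0. In these bulk samples, fewer cells of a type and less RNA per cell cannot be told apart, and the part of these markers in the members' values was not tested.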

How the data were processed

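PolyA RNA of 13 samples was compared, 7 control and 6 H3K36M, grouped by the genotype in the labels. Reads were 75 bases, single end, from a directional kit, per the labels' protocols. STAR, DESeq2 and GRCm38 (mm10) are named without versions in the submitters' processing notes; the counting tool and annotation are not given in the sources used here. Per the file headers, the authors' deposited mean and group levels are normalised counts, a signal scale. The log2 fold change and standard error were deposited on the log2 scale, the Wald statistic is a score by the authors, and the p-values and adjusted p-values are theirs too (DESeq2 by the authors). The deposited mean was the average of both group levels weighted by 7 and 6 samples in each of the 19909 genes that had reads (relative tolerance 1e-06). In the same genes the log2 ratio of the levels equalled the deposited log2 fold change, within 1e-06. The levels thus follow from the mean and the authors' fold change, and are called fitted for that reason. No count model could be fitted without single samples. The 2 deposited ontology tables were not used.

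Members and gene lists were chosen with earlier results of these data known. Intervals (95%) are from the authors' standard errors. Positions, exon lengths, boxes and fingers came from GENCODE release 21 for mouse (GRCm38), by translating each gene's longest coding sequence, since no RefSeq protein table was used. A KRAB A box needed a BLOSUM62 score of at least 60 without gaps against a 40-residue consensus. A classical finger was 2 cysteines 2 to 4 residues apart, 12 residues, then 2 histidines 3 to 5 apart. Named genes were members past the threshold, up to 10 per direction at unadjusted p below 0.05, the 6 highest per kilobase, those next to the minimum mean, the smallest p of each run and the role lists; other genes were Trim28, Setdb1, Setd2 and the 2 smallest p of the KAP1 list. Genes named outside this rule (ends of runs, genes called outside the members, markers and genes sharing reads) were chosen after their values were seen. Python 3.11.15, pandas 2.3.3, numpy 2.4.6, scipy 1.17.1 and Biopython 1.88 were used. The adjustment and the derived variation were tested on simulated data.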

Additional observations from a re-analysis of the deposited data

How the results depend on the processing

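No member was called under any of the following rules. For some, the outcome was fixed by the members' smallest deposited adjusted p of 0.271. These were thresholds of 0.1 or 0.01, a minimum log2 change of 1, and minimum means of 100 or 200. Leaving out members sharing over 25% of 75-base stretches (an alternative chosen after seeing the data) could not add a call either. Calls could have been gained by adjusting p-values over genes with a mean of at least 50, by centring, or by centring and scaling. None was gained, and the smallest adjusted p of a member under these rules was 0.127 (Zfp827, centred and scaled). With no minimum mean, 1 gene was called higher and 1 lower, and both calls (2 in all) came to 0 at a threshold of 0.01. With Zfp1 to Zfp999, 2 of 235 genes were called higher (Zfp239 and Zfp9, not members), beside 1.23% of all tested genes with a mean of at least 50. Centring by the median of all tested genes (0.07) moved the members' median log2 fold change from 0.16 to 0.10 and that of KRAB members from 0.18 to 0.11, and turned Zfp830 from 0.02 to −0.0504 (centred) and −0.0432 (centred and scaled); the subtraction itself is the cause. At a minimum mean of 200, 81.0% of members were above 0, and the cause was not tested. Of 45 named genes recomputed (40 members, 4 genes of the KAP1 list and Setd2), the other 44 kept their sign and side of the threshold under the alternative thresholds, adjustment and centring. Outside these 45, Zfp783, Zfp618 and Zfp9 (adjusted p = 0.0154, 0.0167 and 0.0389 in the deposited table) were not called at 0.01. The KAP1 list had no call under any call rule. Its smallest deposited adjusted p was 0.808 (Atf7ip), so the other thresholds and the minimum log2 change could not have added a call there. Without values of single samples, no library could be left out. No paired analysis was possible because the replicate numbers were given in accession order and the deposited levels are group values.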
